A study of Homo sapiens with 15 samples.

Results

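SW480 is an established human cell line grown from a colorectal adenocarcinoma, and the labels describe it as intestinal epithelial cells. The resting state of this line was described from the 3 control libraries, replicates 1, 2 and 3, taken by their group label from the 18 columns of values in the deposited expression table. Control cells were wild-type SW480, grown in DMEM with fetal bovine serum. The design text says that they were exposed to PBS for 4 h, while the sample labels give their treatment as none. They carried no hairpin, and received none of the bacterial lipopolysaccharide (LPS) used elsewhere in the study. The other labelled groups were LPS, PINT shRNA1 and PINT shRNA1+LPS, and no value from them entered the description. Whether separate cultures gave the 3 replicates is not stated, so the spread given here may be technical. All 3 come from 1 line, so they do not sample the variation between tumours.

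Colorectal epithelium renews itself from crypt stem cells, in which Wnt signals stabilise beta-catenin and keep progenitors dividing. As cells leave the crypt they become absorptive, mucus-secreting goblet, hormone-secreting, Paneth or tuft cells, each with its own marker genes. SW480 is known for a truncated APC protein, which leaves beta-catenin signalling switched on. RNA levels are in FPKM, fragments per kilobase of transcript scaled to the total of mapped fragments. They are corrected for gene length and can be compared between genes, though less well for very short or overlapping ones. A gene is called expressed here at 1 FPKM or more in all 3 libraries, absent below 0.1 FPKM in all 3, and between otherwise.

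SW480 cells expressed 13075 of 57905 listed genes (22.6%), and 11154 of the 19263 protein-coding genes (57.9%). Another 4914 protein-coding genes (25.5%) were absent, and 3195 lay between. Long non-coding genes were sparser: 295 of 6576 lincRNA genes (4.49%) and 413 of 5097 antisense genes (8.10%) were expressed. Among processed pseudogenes 257 of 9749 (2.64%) passed the same limit. The median over protein-coding genes was 3.10 FPKM, against 0.0192 FPKM over all listed genes. Whether antisense genes were counted by strand is not given in the sources used here, so their reads cannot be told from those of the genes they overlap.

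A small number of transcripts made up much of the total. The 10 most abundant genes held 20.1% ± 0.421 (SD, n = 3) of the summed FPKM of a library, and the 100 most abundant held 39.0% ± 0.597. In all, 444 genes reached 100 FPKM in every library, and 28 reached 1000. The 37 mitochondrially encoded genes alone took 25.3%, 24.8% and 25.9% of the total in replicates 1, 2 and 3. FPKM divides by length, so this is not their share of the reads.

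**Figure D1:**
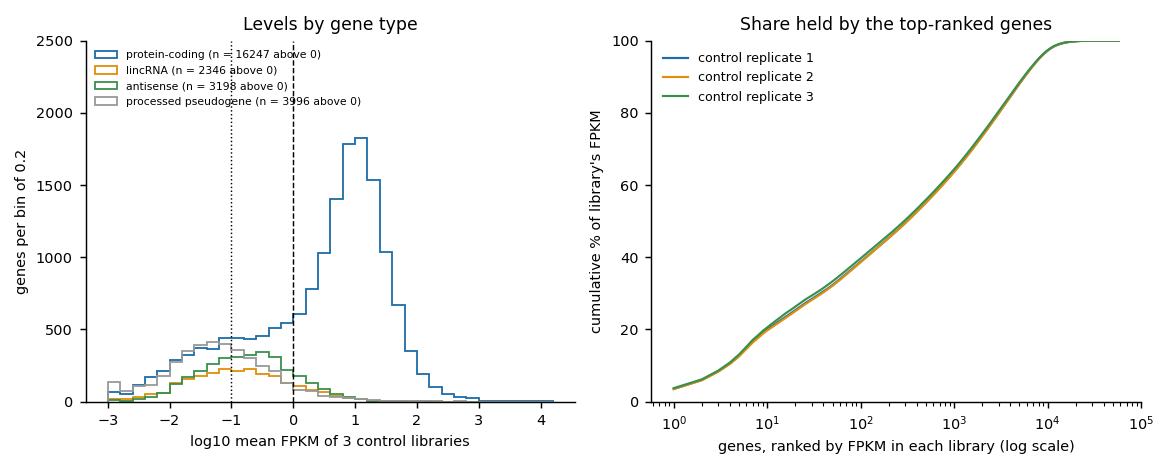
Left, number of genes per bin of log10 mean FPKM over the 3 control libraries, for 4 gene types, leaving out genes at 0 and drawing values under 0.001 in the first bin; the dashed line marks 1 FPKM and the dotted line 0.1 FPKM. Right, cumulative percent of each library's FPKM against gene rank on a log axis; the 3 curves lie close together and pass 20% near the 10th gene.

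The mitochondrial genome encodes subunits of the respiratory chain and of ATP synthase, with its own rRNA and tRNA. MT-CO1, a subunit of cytochrome oxidase, was at 10443, 10128 and 10216 FPKM in replicates 1, 2 and 3. MT-CO2 and MT-CO3, its partner subunits, had means of 10124 ± 146 and 9042 ± 294 FPKM (SD, n = 3). MT-ND4, a complex I subunit, had a mean of 9146 ± 317 FPKM, and MT-ND6, the light-strand subunit of the same complex, 2221 ± 69.9. The highest value of the table, 14965 ± 646 FPKM, belonged to MT-ATP8, a very short gene that overlaps MT-ATP6, itself at 1774 ± 70.4. Of the mitochondrial rRNA genes, MT-RNR2 (16S) was at 8820 ± 254 and MT-RNR1 (12S) at 1302 ± 129. The nuclear copies MTATP6P1 and MTND2P28 were listed at 1617 and 795 FPKM on average, and reads of near-identical copies may have been divided between them and the mitochondrial genes.

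Outside the mitochondrial genome, the 30 most abundant named genes were led by translation, cytoskeletal and metabolic genes, and 18 of them encode cytosolic ribosomal proteins. EEF1A1, the elongation factor that brings tRNA to the ribosome, was the highest at 2359, 2554 and 2464 FPKM in replicates 1, 2 and 3. TMSB10, a thymosin that binds actin monomers, followed at 1744, 1874 and 1839, and the glycolytic enzyme GAPDH stood at 1582, 1568 and 1484. These top ranks were distinct: every library had more EEF1A1 than any library had TMSB10, and more TMSB10 than any had GAPDH. GAPDH overlapped with the ribosomal protein gene RPL41, which had 1488, 1554 and 1530.3 FPKM. ACTB, the cytoplasmic beta-actin, was at 1352, 1503 and 1287 FPKM, and KRT8, a keratin of simple epithelia, at 1260.3, 1154 and 988. Both showed more spread than the ribosomal genes around them. Further down came NPM1, a nucleolar chaperone of ribosome assembly, at a mean of 1028 ± 13.3 FPKM (SD, n = 3), ANXA2, a calcium-dependent membrane-binding protein, at 988 ± 40.9, and TPT1, a growth-related protein, at 959 ± 80.5. Keratin KRT18 (858 ± 21.5), the chaperones HSPA8 (799.6 ± 29.7) and HSP90AA1 (717 ± 30.8), and prothymosin PTMA (784 ± 86.1) completed the non-ribosomal members. Of the 29 pairs of neighbours in this order, 4 were separated in every library, so most ranks below the third are not distinct. In reaching the 30, 22 mitochondrial genes and 4 rRNA or pseudogene entries of equal or higher level were passed over. Those 4 included RNA18S5 at 2655, 2801 and 3648 FPKM and RNA28S5 at 2017, 2099 and 2795, both highest in replicate 3.

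The promoters of these abundant genes showed sequence features that the levels themselves do not contain. Windows are shown for 5 abundant translation genes, because vertebrate ribosomal and elongation factor genes are known to start their mRNA with a C and a run of pyrimidines, the terminal oligopyrimidine tract, through which growth signals control their translation. Sequences are from RefSeq (build GRCh38.p14), 5′ to 3′ on the gene's strand, from 45 bases before to 25 bases from the annotated start. Capitals mark the first 5 transcribed bases.
RPL41 (chr12:56116588-56116657, + strand): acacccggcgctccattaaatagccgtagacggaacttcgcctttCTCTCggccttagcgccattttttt
RPL39 (chrX:119791606-119791675, - strand): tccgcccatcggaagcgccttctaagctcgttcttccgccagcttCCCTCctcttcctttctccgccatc
RPS24 (chr10:78033818-78033887, + strand): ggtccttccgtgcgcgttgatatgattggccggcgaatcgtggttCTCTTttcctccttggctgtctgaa
EEF1A1 (chr6:73521008-73521077, - strand): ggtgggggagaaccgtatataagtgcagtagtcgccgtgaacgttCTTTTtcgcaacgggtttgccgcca
TPT1 (chr13:45341159-45341228, - strand): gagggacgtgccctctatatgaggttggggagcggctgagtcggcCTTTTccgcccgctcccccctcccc

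A C at an annotated start, followed directly by 4 bases that are each C or T, was found at 1 or more listed starts of 48 of the 68 ribosomal protein genes with a promoter in the table (70.6%). The share was 6.42% over all 14991 protein-coding genes with a promoter, and 12.98% over the 285 other nuclear genes expressed at 100 FPKM or more. It was 3.93% among absent genes and 7.75% among all expressed genes. Listed starts averaged 1.24 per ribosomal protein gene, 1.59 for the 285 genes and 1.29 for absent genes. More starts give more chances of a match, and the shares are not corrected for this.

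TATA elements were common at both ends of the range. The element is shown in capitals for 3 of the most abundant non-ribosomal genes, in windows of the same extent, since it lies where the basal transcription factor TFIID is known to bind.
TMSB10 (chr2:84905611-84905680, + strand): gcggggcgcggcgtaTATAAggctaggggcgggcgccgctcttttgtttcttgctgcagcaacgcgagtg
ANXA2 (chr15:60397962-60398031, - strand): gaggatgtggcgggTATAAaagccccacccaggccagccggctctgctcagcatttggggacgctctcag
NPM1 (chr5:171387804-171387873, + strand): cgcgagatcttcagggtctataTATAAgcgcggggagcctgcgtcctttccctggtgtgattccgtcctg

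TATAA, searched on the gene's strand only, with its first base 40 to 21 bases before a start, was present for 46 of the 285 nuclear non-ribosomal genes at 100 FPKM or more (16.1%). In the middle of the range it was present for 130 of 4563 genes between 10 and 100 FPKM (2.85%) and for 157 of 4251 expressed genes below 10 FPKM (3.69%). Among absent genes the share was 12.9%, and over all 14991 genes 6.72%. The longer TATAAA, contained in some of the same matches, gave 7.37%, 1.60%, 2.05%, 8.72% and 4.16% in the same order. CpG dinucleotides followed the level instead: the median observed count over that foreseen from the C and G content was 0.329 for absent genes, 0.562 for genes between, 0.801 below 10 FPKM, 0.853 from 10 to 100 FPKM, 0.873 for the 285 genes above that, and 0.914 for ribosomal protein genes. The annotated starts are not measured in these cells, and a match is a description of letters, not a bound site. The TATA shares are likewise not corrected for the number of listed starts, which averaged 1.47 for genes from 10 to 100 FPKM.

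By family, the machinery shared by all cells was nearly complete. Cytosolic ribosomal proteins counted 83 expressed of 86 genes, with a median of 338 FPKM and 8.25% ± 0.1505 (SD, n = 3) of all FPKM. The 3 exceptions were the tissue-restricted copies RPL3L (0.472 FPKM), RPL39L and RPL10L, the last 2 listed at 0. All 74 mitochondrial ribosomal protein genes, all 17 aminoacyl-tRNA synthetases, 46 of 48 proteasome subunits and 45 of 47 complex I subunits were expressed. MRPS6 (239 ± 4.96 FPKM) led the mitochondrial ribosome, PSMA7 (218 ± 9.32) the proteasome and NDUFV2 (108 ± 10.8) complex I. MRPS6 shares exons with an entry of the carrier SLC5A3, so reads may have been divided between them and its level is uncertain. Among RNA-binding hnRNP genes 22 of 25 were expressed, headed by HNRNPA2B1 at 478, 477 and 476 FPKM.

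Folding and cytoskeletal genes were also abundant. Cytosolic chaperones had 19 of 20 genes expressed with a median of 140 FPKM, HSP90AB1 at 619, 621 and 628 and the mitochondrial HSPD1 at 547, 525 and 569; the stress-induced HSPA6 was absent. All 12 chaperones of the endoplasmic reticulum were expressed, with calnexin CANX at 276 ± 8.77 FPKM (SD, n = 3) and HSPA5 at 185 ± 2.23. Tubulin TUBA1B was at 405 ± 21.9 and profilin PFN1 at 382 ± 18.5, while the muscle actins ACTA1, ACTG2 and ACTC1 were absent. Cofilin CFL1, which severs actin filaments, was at 355, 249 and 292, lowest in replicate 2. Of annexins and S100 proteins 17 of 29 were expressed (58.6%), near the 57.9% of all protein-coding genes. The annexin partner S100A11 was at 466, 449.8 and 447 FPKM and S100A4, linked to cell motility, at 293, 458 and 434, while the inflammatory S100A8 and S100A12 were at 0.

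Receptors and proteins of specialised tissues were mostly silent. Of 354 olfactory receptor genes none was expressed and 335 (94.6%) were absent. None of 37 beta-defensins or of 28 cornified envelope genes was expressed, and 84 of 92 keratin-associated proteins were absent. No bitter taste receptor of 24 was expressed either, but only 10 (41.7%) were absent and the others lay between. Protocadherins (2 of 64 expressed), potassium channels (19 of 95), collagens (8 of 44) and cytochromes P450 (13 of 55) were sparse, where 57.9% of all protein-coding genes were expressed. The highest P450 was CYP51A1, a sterol demethylase, at 61.4 ± 1.2 FPKM (SD, n = 3), and the highest collagen COL9A3, a cartilage collagen chain, at 61.4 ± 3.65. Solute carriers sat near the background share with 200 of 370 expressed (54.1%). They were led by SLC1A5, a glutamine carrier, at 663, 610 and 482 FPKM, which was lowest in replicate 3. ZNF zinc finger genes were widely expressed at low levels, 348 of 503 with a median of 2.57 FPKM.

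**Figure D2:**
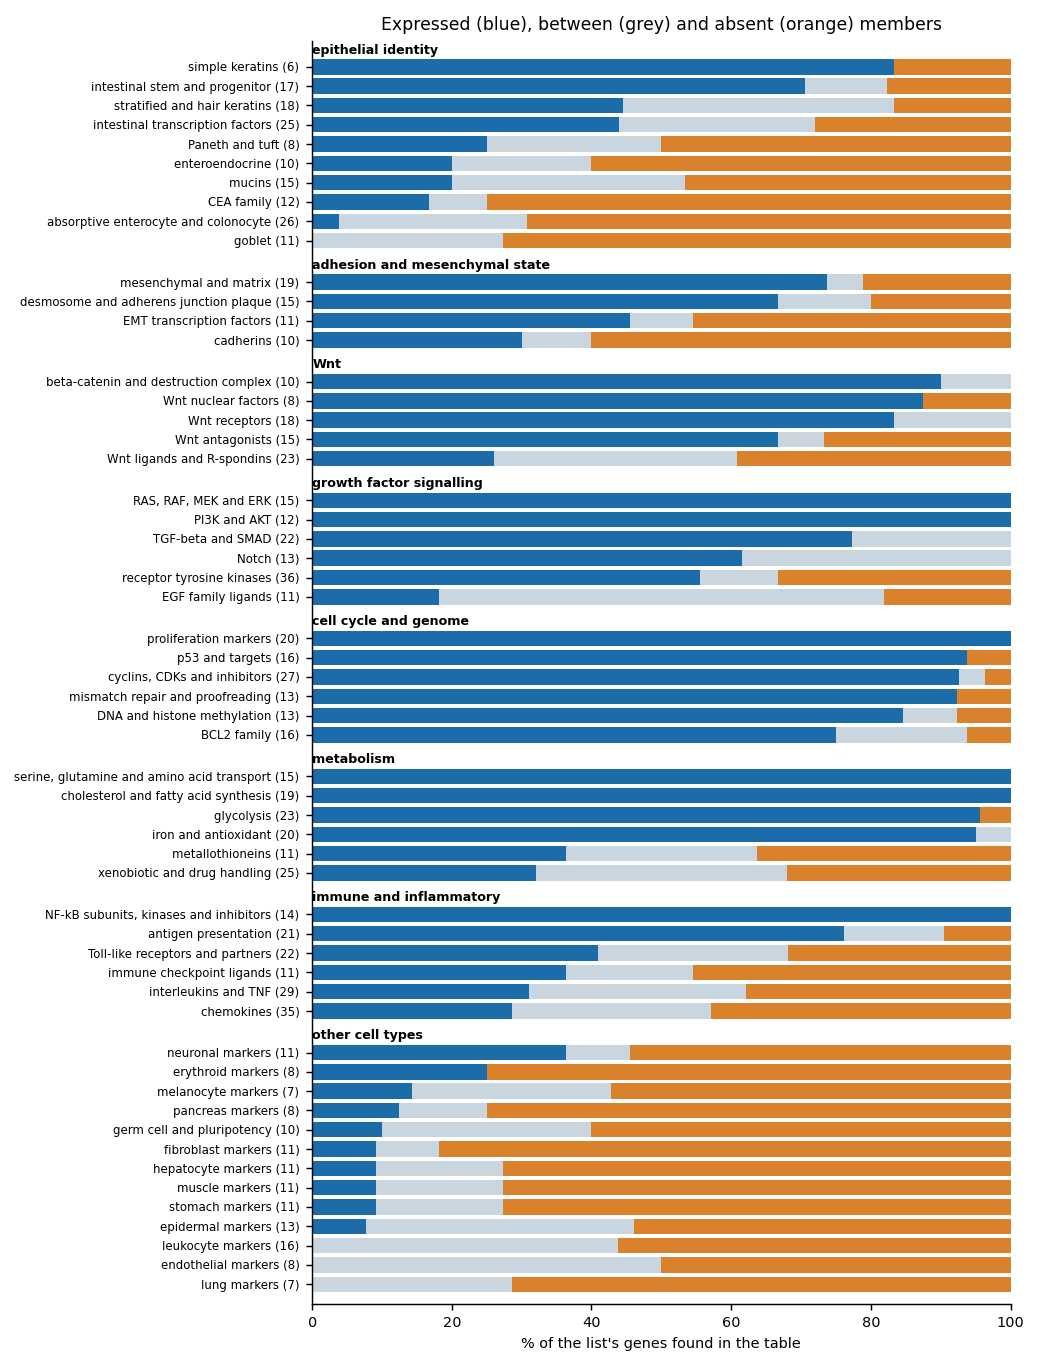
Percent of the genes of each list that were expressed (blue, 1 FPKM or more in all 3 control libraries), absent (orange, under 0.1 FPKM in all 3) or between (grey), with the number of genes found in brackets. The bars are wholly blue for the RAS to ERK, PI3K, proliferation, NF-kB, amino acid and sterol lists, while EGF family ligands (2 of 11 expressed), metallothioneins (4 of 11) and drug handling (8 of 25) are mostly grey and orange, as are the lists of other cell types.

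Keratins of simple epithelia, the filaments of gut lining, were abundant, as the epithelial label has it. KRT8 and its partner KRT18 stood among the 30 most abundant genes, as given above, with KRT19 at 304, 316 and 284 FPKM and KRT23 at 148, 164 and 149. KRT7, typical of other glandular epithelia, was at 3.17 ± 0.464 FPKM (SD, n = 3). KRT20, the keratin of mature colonic cells, was absent at 0.0383, 0.0303 and 0.0445 FPKM. A basal keratin of stratified epithelium was also abundant: KRT5 was at 586, 552 and 528 FPKM. Its usual partner KRT14 was at 0, 0.134 and 0.0465 FPKM, and TP63, a regulator of basal cells, was absent. Among the other stratified keratins KRT13 (19.8 ± 0.676) and KRT80 (16.9 ± 1.58) came next. KRT6A, at 1.83, 1.91 and 5.29 FPKM, was highest in replicate 3, and reads of the near-identical KRT6B and KRT6C could have been divided among the 3.

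Regulators of intestinal fate were present in part, with 11 of 25 expressed. SOX9, a crypt progenitor factor, was at 80.9, 79.2 and 79.8 FPKM, and KLF5, a growth-promoting factor of crypt cells, at 41.0, 38.4 and 41.0. CDX2, the factor that sets hindgut identity, was at 9.88, 9.01 and 11.7, and HNF4A, a factor of enterocyte metabolism, at 9.53, 7.86 and 6.61. Among those that direct secretory fates, ATOH1, SPDEF and NEUROG3 were listed at 0 in all 3 libraries, while GFI1 was at 1.96, 2.38 and 1.79 FPKM. FOXA2, a foregut and gut endoderm factor, was at 2.60 ± 0.330 (SD, n = 3). CDX1, GATA4 and GATA5 were also at 0.

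Markers of finished intestinal cells were largely missing. Of 26 absorptive genes 1 was expressed, VIL1, the microvillus protein villin, at 11.4, 11.1 and 11.2 FPKM, and 18 were absent. Among the absent genes the fatty acid binding protein FABP1 reached 0.0115 FPKM in replicate 3 only, and the chloride exchanger SLC26A3 and the carbonic anhydrase CA1 were listed at 0. No goblet gene of 11 was expressed, and TFF3, AGR2 and CLCA1 were at 0. MUC2, the main gel mucin, had a mean of 0.120 FPKM. Of the enteroendocrine list 2 of 10 genes were expressed, the vesicle proteins SYP (2.62 ± 0.462) and CHGB (1.51 ± 0.0594), while GCG, SST and INSM1 were at 0. DCLK1, a kinase used as a tuft cell marker, was at 23.0, 23.6 and 22.01 FPKM, although TRPM5, the tuft cell channel, was at 0. Mucins were sparse, 3 of 15 expressed: the membrane mucins MUC13 (7.13 ± 0.119), MUC1 (3.68 ± 0.133) and MUC3A (1.60 ± 0.261), while the gel mucins MUC5AC, MUC5B and MUC6 were absent. Of the carcinoembryonic antigen family, CEACAM1 was at 6.79 ± 0.624 FPKM. CEACAM5, the tumour antigen measured in blood, was absent at 0.0691, 0 and 0.0401, and CEACAM6 was at 0.

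Stem and progenitor genes were the best represented of the intestinal lists after simple keratins, 12 of 17 expressed (70.6%) with a median of 6.47 FPKM. Over all protein-coding genes the share was 57.9%. AXIN2, RNF43 and ZNRF3 of this list are also members of the Wnt lists. AXIN2, a feedback target of Wnt, was at 135, 137 and 143 FPKM. CD44, a hyaluronan receptor, was at 77.2, 84.4 and 90.9, and ASCL2, a stem cell transcription factor, at 11.2, 10.98 and 10.2. The stem cell receptor LGR5 was at 0.273, 0.0446 and 0.0241 FPKM, and OLFM4 and SMOC2 were listed at 0. Within this list the highest and lowest members therefore differed by more than 100 FPKM in every library.

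**Figure D3:**
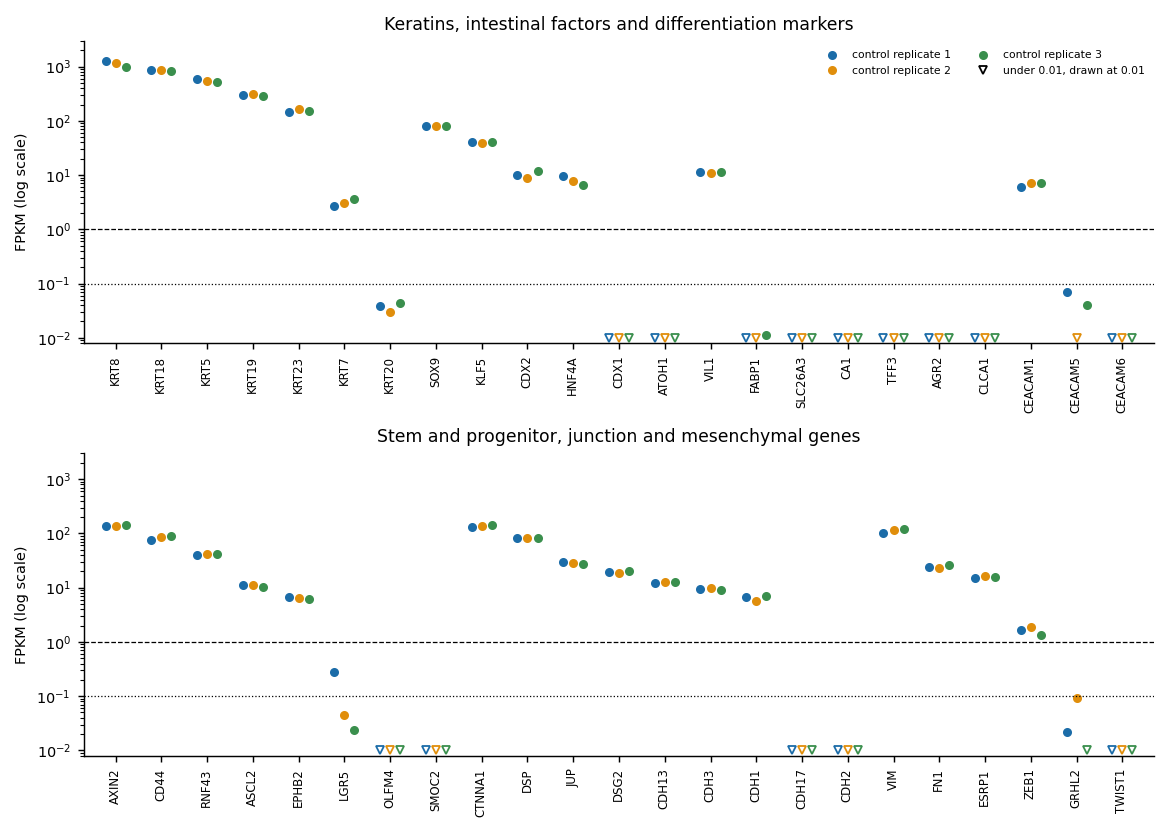
FPKM on a log axis in each control library (colours) for keratins, intestinal factors and differentiation markers (top) and for stem, junction and mesenchymal genes (bottom); open triangles stand for values under 0.01, and lines mark 1 FPKM (dashed) and 0.1 FPKM (dotted). KRT8 to KRT23 lie above 100 FPKM in all 3 libraries, while KRT20 and CEACAM6 lie under 0.1.

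Junction genes gave a mixed epithelial and mesenchymal picture. CDH1, E-cadherin of epithelial junctions, was at 6.80, 5.65 and 6.98 FPKM, below P-cadherin CDH3 (9.43 ± 0.315) and CDH13 (12.7 ± 0.301), a cadherin anchored by lipid. CDH17, the intestinal cadherin, was at 0, and N-cadherin CDH2 was absent at 0.00317 on average. The plaque proteins that tie cadherins to filaments were abundant, among them CTNNA1 at 132, 134 and 146 FPKM and desmoplakin DSP at 82.1, 82.1 and 81.1. Of that list 10 of 15 genes were expressed. VIM, the intermediate filament vimentin of mesenchymal cells, was at 100, 114 and 121 FPKM. Fibronectin FN1 was at 24.6 ± 1.14 FPKM. Fibrillar collagens were low: COL1A1 was at 0.495 ± 0.0684, COL1A2 was absent and COL3A1 was at 0. Among regulators of the epithelial-mesenchymal switch, the epithelial splicing factor ESRP1 (15.9 ± 0.882) exceeded ZEB1 (1.63 ± 0.264) and SNAI1 (1.93 ± 0.398), and TWIST1 and TWIST2 were at 0. GRHL2, an epithelial factor, was absent.

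The Wnt pathway was expressed from receptor to nucleus, with few ligands. WNT5A, a ligand that mostly acts without beta-catenin, was at 57.6, 58.0 and 55.8 FPKM, followed by WNT6 (9.98 ± 1.2) and WNT10A (6.23 ± 0.537). Only 6 of 23 ligand genes were expressed, and all 4 R-spondins, which strengthen Wnt signals, were absent. Receptors were present for 15 of 18 genes, at modest levels: RYK, a receptor for WNT5A among others, stood at 32.0 ± 0.735 FPKM, FZD6 at 15.4 ± 1.81 and the co-receptors LRP5 and LRP6 at 15.3 ± 1.03 and 10.2 ± 0.493. CTNNB1, beta-catenin itself, was at 310, 292 and 293 FPKM. APC, which marks beta-catenin for destruction, was at 13.2, 11.6 and 10.8 FPKM, a level that says nothing of the protein's length. Of the nuclear partners LEF1 was at 20.1 ± 0.660, TCF7 at 9.65 ± 1.75 and TCF7L2 at 8.88 ± 0.819.

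Feedback inhibitors of Wnt were among the highest genes of the pathway. APCDD1, a membrane inhibitor, was at 213, 214 and 211 FPKM, and NKD1, which restrains dishevelled, at 88.7, 87.3 and 80.7. RNF43, a ligase that removes frizzled receptors, was at 39.3, 41.0 and 41.8, and NOTUM, an enzyme that inactivates Wnt ligands, at 24.2, 23.9 and 21.7. All 4 varied little between libraries. Other secreted inhibitors were mixed. SFRP5 (13.2 ± 0.190 FPKM), DKK1 (9.47 ± 0.451), DKK4 (7.75 ± 0.934) and DKK3 (4.03 ± 0.274) were expressed, and SFRP4 lay between. SFRP1, SFRP2, WIF1 and DKK2 were listed at 0 in all 3 libraries.

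**Figure D4:**
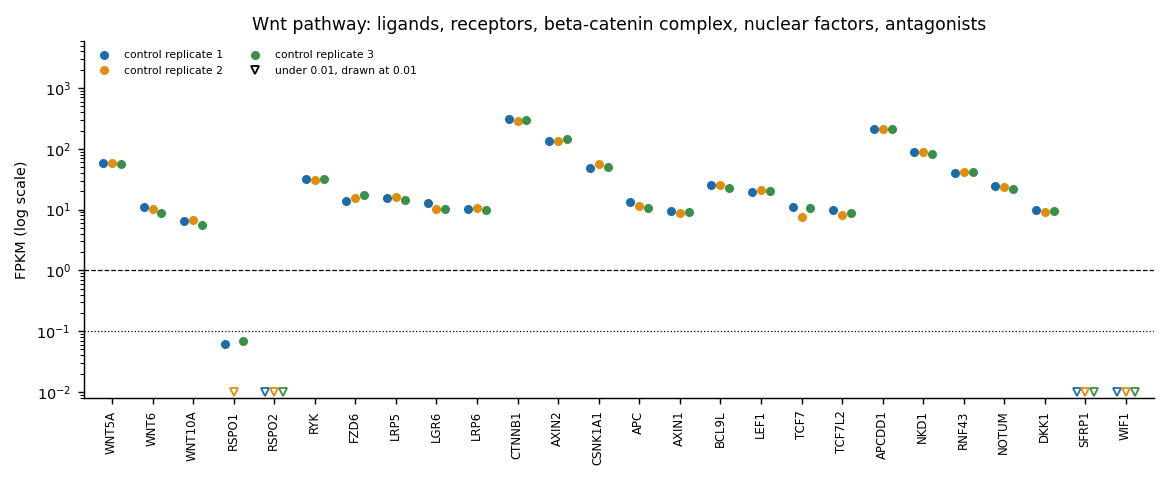
FPKM on a log axis in each control library for ligands, receptors, the beta-catenin complex, nuclear factors and antagonists of the Wnt pathway; symbols and lines as in the plot of lineage genes. CTNNB1, AXIN2 and APCDD1 lie above 100 FPKM, and RSPO2, SFRP1 and WIF1 are at 0.

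The intracellular RAS to ERK and PI3K cascades were fully represented, the receptors near the share of all protein-coding genes and the ligands in part. All 15 genes of the RAS to ERK list and all 12 of the PI3K list were expressed. NRAS was at 29.02 ± 0.934 FPKM and HRAS at 17.0 ± 3.06. Receptor tyrosine kinases were expressed for 20 of 36 genes (55.6%), near the 57.9% of all protein-coding genes. They were led by the ephrin receptor EPHA2 (43.9 ± 4.50), the collagen receptor DDR1 (39.97 ± 3.24) and EGFR (32.3 ± 2.83). Of receptors known from other lineages, PDGFRA, KDR and FLT3 were absent, while NTRK2 (8.30 ± 0.494), AXL (15.8 ± 1.04) and ALK (1.16 ± 0.166) were expressed. Of EGF family ligands 2 of 11 were expressed: TGFA was at 23.5 ± 1.95 FPKM and HBEGF at 1.62 on average, while AREG (0.490 ± 0.173) and EREG (0.735 ± 0.112) were between the limits. In the TGF-beta list 17 of 22 genes were expressed, TGFBR2 at 10.1 ± 0.587 and SMAD3 at 13.4 ± 0.681. SMAD4, the shared partner of the receptor-activated SMADs, was at 0.310, 0.782 and 0.115 FPKM, below 1 in every library. The Notch pathway, which steers crypt cells away from secretory fates, had 8 of 13 genes expressed (61.5%), also near the share of all protein-coding genes. NOTCH2 was at 19.4, 19.4 and 19.1 FPKM, NOTCH1 at 8.20 ± 0.422 and the ligand JAG1 at 7.71 ± 0.321. The targets NRARP and HES1 stood at 24.2 ± 1.16 and 10.52 ± 0.570.

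The cells carried a proliferative profile. All 20 proliferation markers were expressed, with a median of 70.5 FPKM, and PCNA, the replication clamp, was at 263, 268 and 262. MKI67 was at 72.7, 74.5 and 74.1 FPKM and TOP2A, a topoisomerase of dividing cells, at 161 ± 2.68. Cyclin D1, CCND1, was at 578, 577 and 566 FPKM, far above CCND2 (18.99 ± 0.528) and CCND3 (17.5 ± 4.77). MYC was at 6.85, 5.91 and 8.44 FPKM. CDKN1A, a brake on the cell cycle, was at 33.1, 32.5 and 30.5. Of the mismatch repair list 12 of 13 genes were expressed. DNMT1 and UHRF1, which copy DNA methylation after replication, were at 39.9 ± 3.02 and 37.8 ± 1.84, and EZH2, the Polycomb methyltransferase, at 30.7 ± 0.985. MGMT, which repairs alkylated guanine, stood at 1.53 ± 0.189. Among survival genes BCL2L1, which encodes BCL-XL, was at 105, 112 and 36.3 FPKM, with replicate 3 far below the other libraries. BCL2 was at 0.338 ± 0.0899.

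Genes of central metabolism were nearly all present. Glycolysis had 22 of 23 genes expressed with a median of 146 FPKM, ENO1 at 635, 621 and 713 and LDHA at 495, 500.4 and 498. Glucose carriers SLC2A1 (352 ± 16.3) and SLC2A3 (278 ± 6.28) were both abundant. All 15 genes of the serine and amino acid list and all 19 of the sterol and fatty acid list were expressed, with SCD, the fatty acid desaturase, at 162 ± 2.26. Some sterol genes varied between libraries. HMGCS1, an early enzyme of sterol synthesis, was at 41.4, 42.9 and 22.4 and INSIG1, a sterol sensor, at 45.7, 47.1 and 23.5. Both were lowest in replicate 3. Ferritin chains FTL and FTH1 stood at 662 ± 26.9 and 649 ± 35.4 FPKM, and the glutathione transferase GSTP1 at 235, 217 and 203. GSTM1 and GSTA1 were at 0. Drug handling genes were few, 8 of 25 expressed, with the efflux pump ABCB1 at 6.72, 6.98 and 6.54 and CYP3A4 absent. TYMS, the target of fluorouracil, stood at 82.4 ± 3.18. Metallothioneins, which bind zinc and copper, had 4 of 11 genes expressed, MT2A highest at 79.0, 71.7 and 63.7 and MT1G at 0.

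Toll-like receptors and their partners were present in part, 9 of 22 genes of the list (40.9%), against 57.9% of all protein-coding genes. Of the Toll-like receptors themselves only TLR4 and TLR2 (2.21 ± 0.235 FPKM) were expressed, and the remaining expressed members were signalling partners. TLR4, the receptor for LPS, was at 5.43, 6.32 and 5.81 FPKM. CD14, which hands LPS over, was at 0.668, 0.470 and 0.717, and LBP, the serum carrier, at 0. LY96 (MD-2), the partner with which TLR4 binds LPS, was at 0.274, 0.205 and 0.263. The adaptor MYD88 was at 4.04, 8.07 and 9.07, lowest in replicate 1. All 14 NF-kB genes were expressed, NFKB1 at 20.5, 20.5 and 22.01 FPKM and RELA at 9.50, 13.1 and 16.3. Of 29 cytokine genes 9 were expressed, IL32 at 24.7 ± 0.677 and LIF at 15.4 ± 1.22 among them. IL6 and the interferons IFNB1, IFNG and IFNL1 were at 0. Of 35 chemokines 10 were expressed, CXCL1 (18.8 ± 0.882) and CCL2 (17.8 ± 1.69) among them. The shares expressed of the cytokine and chemokine lists were both below the 57.9% of all protein-coding genes. Class I antigen presentation was clear, with B2M at 177, 182 and 193 FPKM. Among checkpoint ligands CD47, a signal against phagocytosis, was at 22.6 ± 1.12, and CD274 (PD-L1) at 0.486, 0.512 and 0.265.

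Positional identity was read from the HOX clusters, whose genes mark position along the body axis. Of 39 HOX genes 28 were expressed: 10 of 11 in HOXA (90.9%), 9 of 10 in HOXB (90%), 5 of 9 in HOXC (55.6%) and 4 of 9 in HOXD (44.4%). Over all protein-coding genes the share was 57.9%. HOXB8 was at 65.7, 60.6 and 60.2 FPKM, followed by HOXB3 (59.6 ± 0.312), HOXB6 (49.7 ± 2.58) and HOXB7 (44.5 ± 0.791). Over all 129 genes of the intestinal factor, Wnt nuclear factor, EMT regulator, nuclear receptor and HOX lists, 75 were expressed, near the share of all protein-coding genes. Not all of the 129 are transcription factors, since the EMT list also holds splicing factors such as ESRP1. Among these genes HOXB8 was second only to SOX9. The vitamin D receptor VDR, at 38.9 ± 1.33, was the highest of 48 nuclear receptors, of which 25 were expressed (52.1%). The oestrogen receptor ESR1, the progesterone receptor PGR and the bile acid receptor NR1H4 were absent. Among long non-coding RNAs 20 of 25 were expressed, MALAT1 at 238, 233 and 240.3 FPKM and SNHG5 at 217, 220 and 228. DANCR was at 28.3, 76.4 and 73.5, lowest in replicate 1. LINC-PINT, the study's target, was at 2.88, 2.56 and 2.51 FPKM, the lowest of the 20 expressed.

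Markers of other cell types were checked for signs of foreign cells or lineage. Of 132 such genes in 13 lists 14 were expressed and 86 absent. No leukocyte gene of 16, no endothelial gene of 8 and no lung gene of 7 was expressed, PTPRC (CD45) reached 0.00504 FPKM in 1 library, and CDH5 and SPI1 were at 0. The summed level of the 16 leukocyte markers was 2.12, 2.48 and 2.05 FPKM. In the hepatocyte list 1 of 11 genes was expressed: SERPINA1, a protease inhibitor, was at 75.9, 67.5 and 101 FPKM while APOA1, TTR and FGB were at 0. The neuronal list had 4 of 11 genes expressed (36.4%), the highest share of the 13 lists. GAD1, which makes the transmitter GABA, was at 15.9, 15.7 and 15.2 and the vesicle protein SYT1 at 12.8, 9.80 and 9.56. The tubulin TUBB3 was at 10.1, 4.73 and 5.38, highest in replicate 1, and SNAP25, a protein of vesicle fusion, at 1.496, 1.77 and 2.095. ELAVL3, ELAVL4, STMN2 and NEFL were at 0. SOX2, a pluripotency and neural factor, was at 2.35, 2.91 and 2.41. The alpha globins HBA1 (2.27 ± 0.0335) and HBA2 (1.62 ± 0.166), which share nearly all their sequence, were expressed, while HBB was at 0.

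The 3 libraries were close to each other, and the spread shrank with level. Over the 13793 genes that averaged 1 FPKM or more, the median SD of log2(FPKM + 0.5) was 0.110. It was 0.142 from 1 to 10 FPKM, 0.0808 from 10 to 100 and 0.0506 from 100 to 1000. Across those genes Pearson's r of the log2 values was 0.979 to 0.982 between pairs of libraries, as a description over genes, which are not independent. In 438 genes the highest library exceeded the lowest by more than 2-fold on that scale. At or above 100 FPKM these were 3 entries, named after their values were seen. The stress granule protein G3BP1 was at 180.2, 189 and 80.5 FPKM. SLC5A3, an inositol carrier, was at 166, 54.9 and 157, and the elongation factor EEF1G at 254, 626 and 407. SLC5A3 has a second entry that was highest in replicate 2, where the first was lowest. EEF1G likewise holds an embedded entry that was high where EEF1G was low, as given below. The ribosomal gene RPL4, at 304, 571 and 585, came close to the 2-fold limit in replicate 1. Genes of GC-rich transcripts were slightly lower in replicate 3, with a median log2 deviation of -0.07 from the mean of the 3 libraries in the fifth of highest GC and 0.01 in the lowest. Its part in the low values of replicate 3 was not tested.

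The 12 most variable entries included read-through, duplicate and embedded genes. BLOC1S5-TXNDC5, a read-through of 2 neighbours, was at 43.5, 0 and 52.0 FPKM, and TXNDC5, which shares its exons, was at 7.11, 62.7 and 5.18. High and low libraries were thus exchanged between the 2 entries. MIR3654, an entry lying in EEF1G, was at 170, 0.959 and 110 FPKM, with EEF1G lowest in the 2 libraries where it was high. A second entry for PSMA2 was at 0.234, 21.7 and 0, with its main entry at 98.9, 68.4 and 99.3. Other read-through entries were MINOS1-NBL1 (16.7, 0.229 and 1.49) and ISY1-RAB43 (7.61, 0 and 0), and the second entry for SLC5A3 was at 3.34, 57.3 and 5.46. Reads that fit several overlapping entries can be assigned to any of them, so such values are uncertain one by one. Among genes over 2-fold that are in the annotation at hand, 206 of 407 (50.6%) share exons with another detected gene, against 5665 of 12960 (43.7%) within 2-fold. CLDN11, a claudin of tight junctions, was at 12.8, 10.1 and 72.6 FPKM, highest in replicate 3. At the other end CD2BP2, a spliceosomal protein, was at 15.2 FPKM in each library, and TCP1, a subunit of the cytosolic chaperonin, had 94.2 ± 0.0821 FPKM. HNRNPA2B1 and the ribosomal RPS4X (656 ± 0.859) were similarly steady at higher levels.

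**Figure D5:**
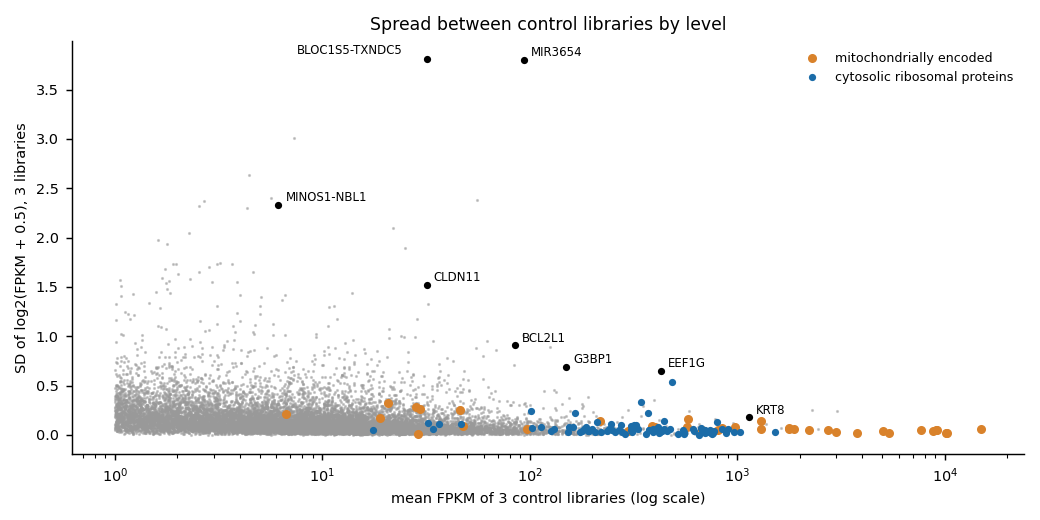
SD of log2(FPKM + 0.5) over the 3 control libraries against mean FPKM on a log axis, 1 point per gene averaging 1 FPKM or more, with mitochondrially encoded genes in orange and cytosolic ribosomal protein genes in blue and the named genes in black. Most genes lie under 0.5, and BLOC1S5-TXNDC5, MIR3654 and MINOS1-NBL1 lie between 2.33 and 3.81.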

How the data were processed

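RNA of SW480 cells was sequenced on an Illumina instrument, per the labels. Each Ensembl gene has an FPKM value made by the authors, which was not rescaled here. Tools named in the submitters' processing notes, without their roles, are StringTie 1.3.4d, HISAT2 2.1.0 and fastp, and the build is GRCh37/hg19. Of 18 value columns, 3 were used, 9 belong to other labelled groups and 6 to no labelled sample. Reads per library are not given in FPKM. Ratios of genes between 0.01 and 0.3 FPKM, at their commonest value, put replicates 2 and 3 at 0.809 and 0.860 of the depth of replicate 1. Only 1.08% and 0.866% of those genes shared that ratio, so this is a rough estimate, and the counting error of a gene is unknown. FPKM summed to 417619 to 421487 per library.

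Levels are means ± SD over 3 libraries, with no test and no contrast. Symbols listed more than once (2023 repeated entries) are represented by the most abundant. Gene types and exon overlap came from GENCODE 29 (52338 genes matched by Ensembl ID). It is of another build, so exon overlap rests on its coordinates and not on those of the annotation behind the FPKM values. Promoters came from RefSeq (GRCh38.p14), matched by symbol for 14991 protein-coding genes. The 67 gene lists and the members described were chosen with earlier results of these data known. Genes were named by rule: the 30 most abundant outside the mitochondrial genome, the highest and the defining absent members of each list, any member of a short list, the highest of each family, the 12 most variable and the 10 steadiest. Other members of longer lists, such as MYC, CD14, KRT6A, HMGCS1 and INSIG1, were named after their values were seen. The functions were tested on simulated data. Python 3.11.15 with pandas 2.3.3 and numpy 2.4.6 was used. The search for TATAA was added to that for TATAAA after the data were seen. Protein length was not computed. Alternatives were other limits, totals on the TPM scale, other pseudocounts and leaving out each library. Some members of the lists are not reported here.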

Additional observations from a re-analysis of the deposited data

How the results depend on the processing

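No paired analysis was possible because 1 group was described and no test was made. The number of expressed genes stayed within 1.5 times of the main count under every limit tried, from 11328 at 2 FPKM to 19259 at 0.1 FPKM, and was 13259 to 13323 without 1 library. The 100 most abundant genes held 21.5% of FPKM when mitochondrially encoded genes were left out of ranks and total, and the 50 and 200 most abundant held 32.6% and 45.6%. Ribosomal protein genes then held 11.05% of FPKM without the mitochondrial genes. The median SD was 0.119 with a pseudocount of 0.1, 0.101 with 1, 0.0780 over genes of at least 10 FPKM and 0.123 over all genes above 0. It was 0.0812 to 0.0896 with 2 libraries, where fewer samples by themselves lower it. Genes over 2-fold numbered 106 from 10 FPKM and 212 to 247 with 2 libraries, for the same reason. Markers of other cell types expressed were 8 at 2 FPKM and 22 after scaling each total up to the TPM scale, which lowers the limit, so that count rests on genes near 1 FPKM. Low values are limited by a depth that is not given.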

Other observations

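Several families outside the gene lists had members at high levels. Their shares expressed are given beside the counts, where 57.9% of all protein-coding genes were expressed. Of 26 integrins, receptors for matrix, 13 were expressed (50%). ITGA6 was at 124, 117 and 129.8 FPKM in replicates 1, 2 and 3 and ITGB5 at 92.6, 109.8 and 86.9. Matrix metalloproteinases counted 3 expressed of 20 (15%), MMP14, a membrane-bound collagenase, at 15.4 ± 0.750 FPKM (SD, n = 3). Of the secreted kallikrein proteases 4 of 16 were expressed (25%), KLK6 at 48.3, 37.3 and 40.4 and KLK10 at 21.7, 35.7 and 17.1. ALDH1A3, which makes retinoic acid, was at 159.9, 165 and 184, the highest of 19 aldehyde dehydrogenases, of which 14 were expressed (73.7%).

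Among forkhead factors 20 of 48 were expressed (41.7%), below the 57.9% of all protein-coding genes, with FOXQ1 at 59.5, 56.6 and 57.7 FPKM. FOXM1, a driver of mitotic genes, was at 46.8, 24.9 and 48.2, lowest in replicate 2. PAX6, known from eye and endocrine pancreas, was at 16.1, 15.4 and 16.8, and PAX8, known from thyroid and kidney, at 9.68, 9.84 and 9.55. Both were steady between the 3 libraries.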
